A study of Mus musculus with 12 samples.

Results

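The genes described here are 5 CC chemokine ligands, *Ccl3*, *Ccl4*, *Ccl5*, *Ccl6* and *Ccl9*, with the chemokine receptor *Ccr1* and the chemokine receptor-like gene *Ccrl2*. They were taken by symbol from a table of read counts, and they make up 7 of its 54532 genes. Bone marrow of wild-type mice (C57BL/6) was cultured in medium with GM-CSF and IL-6, cytokines that drive the formation of immunosuppressive myeloid cells. All cultures shared these cytokines and were harvested at day 5, with fresh medium at day 3. The control group received DMSO as vehicle (0.1 by the label), and the other groups received 10 µM or 50 µM indole-3-propionic acid (IPA), a tryptophan metabolite made by gut bacteria, which was replenished with the medium. Each group held 4 libraries of bulk RNA-seq, 12 in all. The labels do not say whether the cultures came from separate mice, so p-values measure the spread between these libraries, which may be technical.

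CC chemokines are small secreted proteins that attract leukocytes through receptors coupled to G proteins, and they are named for a pair of adjacent cysteines near their start. CCL3 and CCL4, also called macrophage inflammatory protein 1 alpha and 1 beta, and CCL5, also called RANTES, are released by activated macrophages and lymphocytes. CCL6 and CCL9 are made in large amounts by mouse myeloid cells. CCR1 is a receptor for CCL3, CCL5, CCL6 and CCL9. The protein of *Ccrl2* binds chemerin and presents it to cells that carry the chemerin receptor CMKLR1, and it is not known to signal in answer to the ligands described here.

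The 5 ligand genes lie close together on mouse chromosome 11 (build GRCm38). *Ccl5* (ENSMUSG00000035042) was at chr11:83525778-83530518, *Ccl9* (ENSMUSG00000019122) at chr11:83572919-83578636, *Ccl6* (ENSMUSG00000018927) at chr11:83587882-83593087 and *Ccl3* (ENSMUSG00000000982) at chr11:83647844-83649355, all on the minus strand. *Ccl4* (ENSMUSG00000018930) followed at chr11:83662584-83664683 on the plus strand. The smallest gap was that of 9.2 kb between *Ccl9* and *Ccl6*, and 13.2 kb separated *Ccl3* from *Ccl4*. Both receptor genes are on the minus strand of chromosome 9, *Ccrl2* (ENSMUSG00000043953) at chr9:111054486-111057519 and *Ccr1* (ENSMUSG00000025804) at chr9:123962124-123968692. The coding transcripts of *Ccl3*, *Ccl4* and *Ccl5* have 3 exons, and those of *Ccl6* and *Ccl9* have 4.

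The 60 coding bases around the adjacent cysteine codons, from the GENCODE M21 transcripts, are shown because they carry the feature that names the family and let the 5 messages be compared around it. The capitals mark the 2 cysteine codons. They lie within exon 2 of 3 in *Ccl3* (stretch at chr11:83648616-83648675), *Ccl4* (chr11:83663464-83663523) and *Ccl5* (chr11:83529206-83529265), and within exon 3 of 4 in *Ccl6* (chr11:83589350-83589409) and *Ccl9* (chr11:83575890-83575949).
Ccl3: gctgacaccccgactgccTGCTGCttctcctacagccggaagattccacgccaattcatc
Ccl4: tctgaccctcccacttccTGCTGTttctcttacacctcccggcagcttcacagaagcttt
Ccl5: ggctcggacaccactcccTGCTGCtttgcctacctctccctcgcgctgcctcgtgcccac
Ccl6: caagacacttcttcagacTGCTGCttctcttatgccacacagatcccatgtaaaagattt
Ccl9: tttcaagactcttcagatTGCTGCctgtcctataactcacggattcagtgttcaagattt

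The first cysteine codon was number 34 in *Ccl3* and *Ccl4*, 33 in *Ccl5*, 50 in *Ccl6* and 57 in *Ccl9*. Over whole coding sequences, *Ccl3* and *Ccl4* were identical at 68.4% of aligned positions and *Ccl6* and *Ccl9* at 65.1%, the highest values among the 10 pairs, and *Ccl5* and *Ccl9* at 46.9%, the lowest. The longest run shared by any pair was 23 bases, in *Ccl6* and *Ccl9*. No 50-base words in transcripts of *Ccl3*, *Ccl4*, *Ccl5*, *Ccl6*, *Ccr1* or *Ccrl2* occurred in those of another gene. In *Ccl9* 1.97% of the words did, in none of the other 6 genes described here.

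The 12 libraries held 20451312 to 28038612 counts, and 14894 genes passed the filter on low counts and were tested, all 7 of these genes among them. Values are given as CPM, read counts scaled to library size with trimmed-mean (TMM) factors, and where genes are compared with each other as RPKM, CPM per kilobase of exon. Differences were tested with edgeR's quasi-likelihood test and Benjamini-Hochberg adjustment over all tested genes, and a gene was called at an adjusted p under 0.05. The median log2 fold change of all tested genes was -0.01 at 10 µM and 0.01 at 50 µM against vehicle. The summed CPM of 10 neutrophil markers was 15530 to 29820 and that of 4 erythroid markers at most 1.08, so transcripts of the myeloid lineage were present in every library. In bulk RNA, fewer cells of a type and less RNA per cell cannot be told apart.

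In vehicle cultures, *Ccl6* mRNA stood far above the others at 1548 ± 182 RPKM (SD, n = 4), rank 16 of 14889 genes with a known exon length. *Ccl9* followed with 232 ± 22.1 RPKM, then *Ccr1* with 148 ± 23.8 and *Ccl3* with 125 ± 11.4. *Ccl4* had 70.2 ± 10.1 RPKM, *Ccl5* 11.2 ± 1.29 and *Ccrl2* 6.02 ± 0.661. Neighbours in this order did not overlap between libraries except for *Ccr1* and *Ccl3*. At 10 µM IPA, *Ccl3* (169 ± 17.9 RPKM) and *Ccr1* (166 ± 14.7 RPKM) again overlapped. At 50 µM, *Ccl3* at 198 ± 15.6 RPKM lay above *Ccr1* at 147 ± 15.6 RPKM in every library, and no neighbours overlapped. By mean RPKM, *Ccl6* was at rank 16, 12 and 9 of all genes in vehicle, 10 µM and 50 µM libraries, and *Ccl9* at rank 201, 127 and 83.

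**Figure D1:**
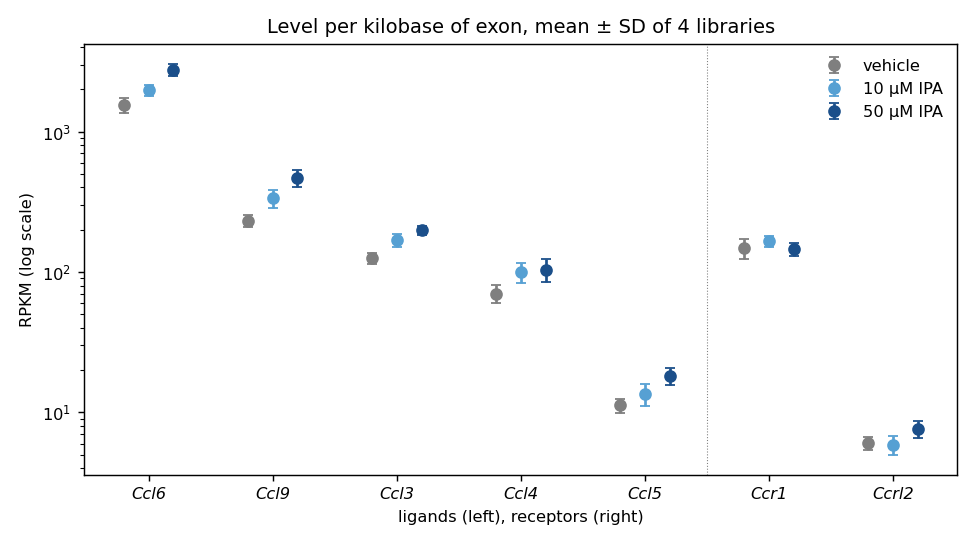
RPKM on a log axis for the 5 ligand genes and the 2 receptor genes, with points for the mean and bars for the SD of 4 libraries in each group. *Ccl6* lay near 1548 RPKM in vehicle and 2769 RPKM at 50 µM IPA, while the group means of *Ccr1* lay between 147 and 166 RPKM.

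Across all 24 CC ligand genes in the table, the 5 ligands made up 73.3% ± 2.72 of the summed RPKM in vehicle cultures, 74.9% ± 1.59 at 10 µM and 74.4% ± 3.49 at 50 µM (SD, n = 4 each). *Ccl6* alone held 57.0% ± 2.95, 57.1% ± 1.73 and 58.0% ± 3.50 of it. The share of *Ccl9* was 8.56% ± 0.320 in vehicle, 9.61% ± 0.330 at 10 µM and 9.76% ± 0.542 at 50 µM, and that of *Ccl4* was 2.59% ± 0.327, 2.87% ± 0.199 and 2.17% ± 0.236. The makeup of the pool thus moved by at most a few percentage points. The level of *Ccl9* was 3.33 ± 0.314 times that of *Ccl4* per length in vehicle and 4.54 ± 0.467 times at 50 µM, with no overlap between these groups. Of the ratios taken between ligands, it was the only one that kept these groups apart. Those of *Ccl6* to *Ccl9*, *Ccl3* to *Ccl4*, *Ccl6* to *Ccl3* and *Ccl9* to *Ccl3* overlapped.

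At 50 µM IPA all 5 ligand genes rose against vehicle and neither receptor gene was called by edgeR, DESeq2 or limma-voom, though *Ccrl2* had an unadjusted p under 0.05. By log2 fold change *Ccl9* rose the most of the 7, by 2.03-fold, followed by *Ccl6*, *Ccl5*, *Ccl3* and *Ccl4* at 1.49-fold. Over all tested genes 7.00% were called higher and 6.50% lower in this comparison. At 10 µM IPA edgeR called none of the 7 genes against vehicle, where it called 0.329% of all genes higher and 0.0806% lower, while DESeq2 called 4 of the 7 higher, beside 1.46% of the genes it gave an adjusted p, and limma-voom none, beside 0.336%. From 10 µM to 50 µM, *Ccl5*, *Ccl6* and *Ccl9* rose, beside 7.52% of all genes called higher and 7.85% lower. Over the 5 ligands the median log2 change was 0.43 at 10 µM against vehicle, 0.70 at 50 µM against vehicle and 0.43 between the doses. Both comparisons with vehicle share the same 4 control libraries.

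**Figure D2:**
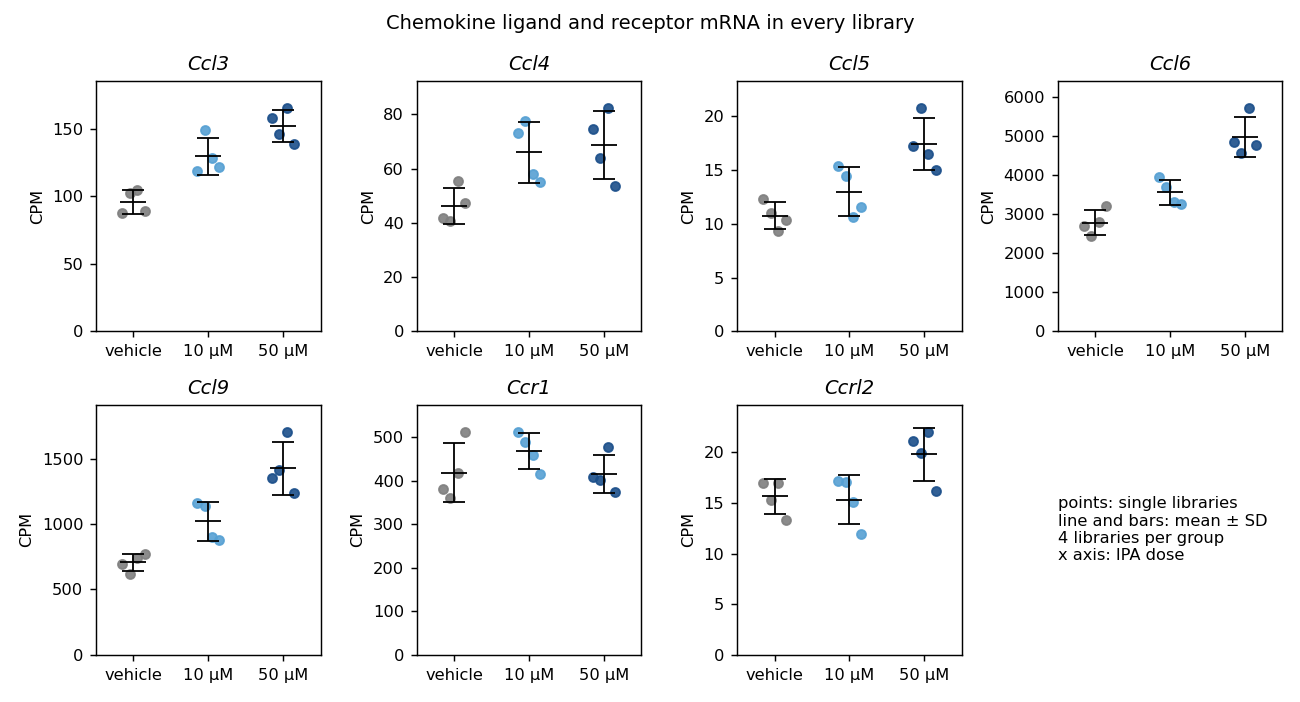
CPM of each gene in every library (points), with the mean and SD of 4 libraries as line and bars, for vehicle, 10 µM and 50 µM IPA. The 50 µM points of *Ccl3*, *Ccl5*, *Ccl6* and *Ccl9* lie above all vehicle points, whereas those of *Ccr1* (374 to 478 CPM) lie within the vehicle range of 360 to 513 CPM.

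*Ccl6*, a myeloid chemokine, was counted at 2695, 2424, 2784 and 3210 CPM in the vehicle libraries, at 3944, 3700, 3297 and 3263 CPM at 10 µM IPA, and at 4830, 4561, 5715 and 4777 CPM at 50 µM. Each group lay wholly above the one with less IPA, and the gap between the highest vehicle library and the lowest 10 µM library was narrow. The rise was 0.85 ± 0.10 (log2 fold change ± SE) at 50 µM against vehicle, with an edgeR adjusted p of 0.000110, and 0.49 ± 0.08 at 50 µM against 10 µM, with 0.000653. Both calls held in 8 of 8 fits that left out 1 library. At 10 µM against vehicle the log2 fold change was 0.35 ± 0.09 with an edgeR adjusted p of 0.172. Leaving out vehicle replicate 4, the highest vehicle library, gave 0.43 and an adjusted p of 0.0235 in the same edgeR test.

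*Ccl9*, the nearest neighbour of *Ccl6* on the chromosome and another ligand of CCR1, was counted at 692, 619, 742 and 773 CPM in vehicle libraries, at 1158, 1136, 903 and 878 CPM at 10 µM, and at 1350, 1411, 1706 and 1233 CPM at 50 µM. The 3 groups did not overlap. Replicates 1 and 2 of the 10 µM group were the higher ones for *Ccl9*, as they were for *Ccl4*, *Ccl5*, *Ccl6*, *Ccr1* and *Ccrl2*. Against vehicle the log2 fold change was 1.02 ± 0.10 at 50 µM (edgeR adjusted p = 4.07e-05), and against 10 µM it was 0.49 ± 0.10 (edgeR adjusted p = 0.00491), each called in 8 of 8 fits without 1 library. The change of 0.53 ± 0.10 at 10 µM missed the threshold with an edgeR adjusted p of 0.0638, and passed it with 0.0238 without vehicle replicate 4.

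*Ccl3*, which encodes macrophage inflammatory protein 1 alpha, was counted at 87.7, 102, 105 and 89.1 CPM in vehicle libraries, at 119, 149, 128 and 122 CPM at 10 µM and at 158, 146, 165.5 and 139 CPM at 50 µM. Both IPA groups lay above all vehicle libraries, and they overlapped with each other through 10 µM replicate 2. The log2 fold change against vehicle was 0.43 ± 0.09 at 10 µM (edgeR adjusted p = 0.0758) and 0.67 ± 0.08 at 50 µM (edgeR adjusted p = 0.000200), the latter called in 8 of 8 fits without 1 library. Between the doses it was 0.23 ± 0.08, with an edgeR adjusted p of 0.0608 that fell to 0.0214 without 10 µM replicate 2.

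*Ccl4*, which encodes macrophage inflammatory protein 1 beta, was counted at 41.9, 40.7, 55.4 and 47.1 CPM in vehicle libraries, at 73.2, 77.7, 58.0 and 55.1 CPM at 10 µM and at 74.7, 64.1, 82.4 and 53.5 CPM at 50 µM. Here the lowest library of each IPA group fell just under vehicle replicate 3. *Ccl4* rose by 0.58 ± 0.13 on the log2 scale at 50 µM against vehicle (edgeR adjusted p = 0.0114, at most 0.0419 without 1 library). At 10 µM the log2 fold change was 0.51 ± 0.13 with an edgeR adjusted p of 0.151. From 10 µM to 50 µM it was 0.06, with a 95% interval of -0.21 to 0.33, the smallest difference between the doses among the 5 ligands. Whether this difference departs from those of the other ligands was not tested.

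*Ccl5*, the RANTES gene, was the least abundant ligand, with 209 to 568 counts per library. It was counted at 12.3, 11.0, 9.36 and 10.4 CPM in vehicle libraries, at 15.4, 14.5, 10.6 and 11.6 CPM at 10 µM and at 17.3, 20.8, 16.5 and 15.0 CPM at 50 µM. The 50 µM group lay above all vehicle libraries, and the 10 µM group spread from within the vehicle range up into the 50 µM range. *Ccl5* rose by 0.70 ± 0.12 on the log2 scale at 50 µM against vehicle (edgeR adjusted p = 0.00243, called in 8 of 8 fits without 1 library). Its log2 fold change at 10 µM was 0.27 ± 0.14, with an edgeR adjusted p of 0.634 and a 95% interval of -0.03 to 0.57. The rise of 0.43 ± 0.13 between the doses had an edgeR adjusted p of 0.0414 and held in 2 of 8 fits without 1 library. It ended without 10 µM replicate 2, 3 or 4 (adjusted p of 0.0505, 0.120 and 0.0944) and without 50 µM replicate 1, 2 or 3 (0.0680, 0.148 and 0.0558).

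Other measures of the ligands can be set beside these tests. At 10 µM *Ccl3*, *Ccl6* and *Ccl9* lay above every vehicle library, against 3.56% of all tested genes. Without adjustment, *Ccl3*, *Ccl4*, *Ccl6* and *Ccl9* had p under 0.05 by edgeR, beside 1308 of all 14894 genes. These are the 4 genes that DESeq2 called, with adjusted p from 0.000453 for *Ccl9* to 0.0260 for *Ccl6*. At 50 µM against vehicle, 4 of the 5 ligands (all but *Ccl4*) lay above every vehicle library, against 9.45% of all genes. In that comparison edgeR, DESeq2 and limma-voom each called the 5, and DESeq2 called 8.47% and limma-voom 6.98% of all genes higher. Between the doses *Ccl6* and *Ccl9* did not overlap, against 9.41% of all genes, and DESeq2 called *Ccl3* and *Ccrl2* in addition, with adjusted p of 0.0430 and 0.0399, beside 9.33% of all genes called higher by that tool.

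**Figure D3:**
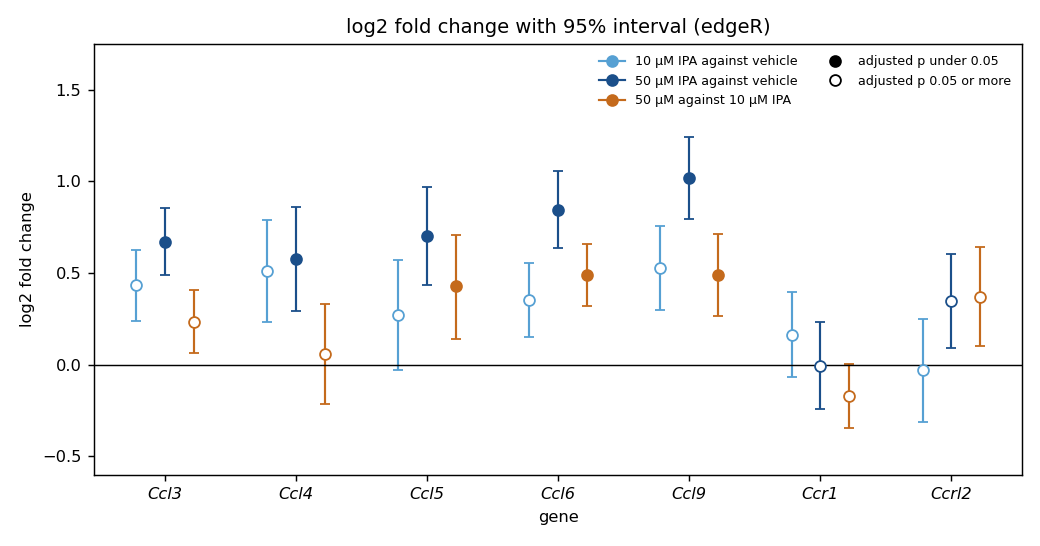
log2 fold change (vertical axis) of each gene in the 3 comparisons, with bars for the 95% interval from edgeR and filled points for an adjusted p under 0.05. The 5 ligands at 50 µM against vehicle are filled and reach from 0.58 to 1.02, and *Ccr1* and *Ccrl2* are open in all 3 comparisons.

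*Ccr1*, the receptor of most of these ligands, was counted at 382, 360, 419 and 513 CPM in vehicle libraries, at 512.5, 488, 459 and 416 CPM at 10 µM and at 407, 402, 478 and 374 CPM at 50 µM. All 3 groups overlapped. The log2 fold change at 50 µM against vehicle was 0.00 in size, with a 95% interval of -0.24 to 0.23 and an edgeR adjusted p of 0.987. The upper bound of this interval lies below the lower bounds of *Ccl3*, *Ccl5*, *Ccl6* and *Ccl9* (0.49, 0.43, 0.64 and 0.80) and of *Ccl4* (0.29), and the difference between genes was not itself tested. At 10 µM against vehicle it was 0.16 (interval -0.07 to 0.40, edgeR adjusted p = 0.760). Between the doses it was -0.17 (interval -0.35 to 0.00, edgeR adjusted p = 0.175), and without 50 µM replicate 3 it was -0.24 with an adjusted p of 0.0382.

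*Ccrl2*, with 261 to 543 counts per library, was counted at 16.9, 15.3, 17.0 and 13.4 CPM in vehicle libraries, at 17.2, 17.0, 15.1 and 12.0 CPM at 10 µM and at 21.1, 19.9, 22.0 and 16.1 CPM at 50 µM. In the 50 µM group 3 of 4 libraries lay above all others, and replicate 4 lay within the vehicle range. The log2 fold change was 0.35 ± 0.12 against vehicle (edgeR adjusted p = 0.0712) and 0.37 ± 0.13 against 10 µM (edgeR adjusted p = 0.0613). Without 50 µM replicate 4 these p-values were 0.0324 and 0.0306, and without 10 µM replicate 1 the second was 0.0372. At 10 µM against vehicle the log2 fold change was -0.03, with an interval of -0.31 to 0.25.

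*Ccr3*, an eotaxin receptor that also binds CCL5, had only 14 to 72 counts per library. It rose by 1.61 ± 0.31 at 50 µM against vehicle (edgeR adjusted p = 0.00412) and by 1.06 ± 0.29 against 10 µM (edgeR adjusted p = 0.0218). The latter call ended without 10 µM replicate 3 (0.0611), 50 µM replicate 2 (0.0751) or 50 µM replicate 3 (0.0621). *Ccr1l1* and the scavenging receptors *Ackr1* and *Ackr2* had at most 20 counts in any library and were not tested.

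Of the genes around chemerin, the ligand of the CCRL2 protein, *Cmklr1* had 2578 to 4271 counts per library. Its log2 fold change was 0.13, 0.04 and -0.09 in the 3 comparisons, and none was called by edgeR. *Rarres2*, the chemerin gene itself, had at most 3 counts in any library, and *Gpr1*, another chemerin receptor, at most 1.

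The other CC ligand genes moved more widely. In the table were 19 of them, of which 9 were tested. At 50 µM against vehicle 5 rose and 1 fell, beside 7.00% and 6.50% of all genes. The median of the 9 log2 fold changes was 0.99. *Ccl24*, an eotaxin, rose from 1.31 ± 0.169 to 13.1 ± 5.94 CPM, *Ccl7* from 5.62 ± 1.77 to 15.2 ± 3.84 CPM and *Ccl2* from 44.2 ± 5.87 to 107 ± 15.7 CPM (SD, n = 4), the last 2 being monocyte attractants that act on CCR2. *Ccl8* fell by 1.85 on the log2 scale with an edgeR adjusted p of 0.0370, its groups overlapped, and the call ended without vehicle replicate 3 (0.146) or 50 µM replicate 2 (0.108), 3 (0.107) or 4 (0.106). At 10 µM, where 0.329% of all genes were called higher, *Ccl24* rose by 1.83 (edgeR adjusted p = 0.00980, and 0.0562 without 10 µM replicate 2). *Ccl2* rose by 0.73 at 10 µM with an edgeR adjusted p of 0.0277, a call that held in 3 of 8 fits without 1 library and ended without vehicle replicate 1 (0.115) or 2 (0.0883) or 10 µM replicate 1 (0.0826), 2 (0.143) or 4 (0.0536). From 10 µM to 50 µM, 3 of the 9 rose (5 without 50 µM replicate 4) and 1 fell, beside 7.52% and 7.85% of all genes. *Ccl8* (-2.98), *Ccl24* (1.48), *Ccl22* (0.73) and *Ccl2* (0.54) were the 4 furthest from 0 in log2 fold change.

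Of 8 other CC receptor genes tested, 2 rose and 1 fell at 50 µM against vehicle, beside 7.00% and 6.50% of all genes. The list is too short for these counts to be read as a result about it. *Ccr3* is described above. *Ccr7*, which guides cells to lymph nodes, rose by 0.41 (edgeR adjusted p = 0.0135, and 0.0554 without vehicle replicate 3 or 0.0565 without 50 µM replicate 2). *Ccr2*, the receptor for CCL2, fell by 0.76 (edgeR adjusted p = 0.00153). At 10 µM against vehicle its log2 fold change had the other sign, 0.54 ± 0.12, with every 10 µM library above every vehicle library (505 ± 16.5 against 347 ± 72.7 CPM, SD, n = 4), an edgeR adjusted p of 0.0975 and a DESeq2 adjusted p of 0.00287. None was called by edgeR at 10 µM, where 2 had an unadjusted p under 0.05 and DESeq2 called 2 and limma-voom 0. Without vehicle replicate 4, edgeR called 2 higher at 10 µM. Between the doses 3 rose, *Ccr3*, *Ccr4* and *Ccr7*, and 2 fell, beside 7.52% and 7.85% of all genes. *Ccr2* at -1.31 was the furthest from 0. The number that rose was 1 without 10 µM replicate 3 (*Ccr4* then at an edgeR adjusted p of 0.0689) or without 50 µM replicate 2 (0.0769).

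Below the receptors, 38 genes of G proteins, phospholipase C, phosphoinositide 3-kinase gamma, receptor kinases, arrestins, RGS proteins and Src-family kinases were tested. None was called by edgeR at 10 µM, nor by DESeq2 or limma-voom, and 3 had an unadjusted p under 0.05. At 50 µM against vehicle 3 rose and 4 fell, around a median of -0.02 on the log2 scale. These counts of 38 are near the shares of all genes called, 7.00% higher and 6.50% lower, and are no result about the list. The RGS gene *Rgs16*, whose protein shortens G protein signals, rose from 1.44 ± 0.526 to 3.41 ± 0.842 CPM. The receptor kinase gene *Grk5* (0.43) and *Rgs10* (0.39) also rose, and the kinase gene *Lyn* fell by 0.34, each called in 8 of 8 fits without 1 library. The number that fell in this comparison was 2 without vehicle replicate 3. Between the doses 5 rose and 5 fell, beside 7.52% and 7.85% of all genes, and these counts moved without single libraries. The number that rose was 1 without 10 µM replicate 2 or 50 µM replicate 4, 2 without 50 µM replicate 2, and 3 without 10 µM replicate 1 or 3 or 50 µM replicate 3. The number that fell was 3 without 10 µM replicate 2 or 50 µM replicate 2.

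The ligands *Ccl3* and *Ccl4* are classical targets of NF-kappaB in activated myeloid cells, and 29 genes of NF-kappaB factors and of the same early activation programme were tested beside them. At 50 µM against vehicle 5 rose (8 without vehicle replicate 2) and 3 fell, and the median log2 fold change was 0.05. *Cd83*, an activation marker, rose from 22.9 ± 1.42 to 44.1 ± 6.23 CPM, and the immediate early gene *Egr2* rose from 93.2 ± 12.0 to 144 ± 11.7 CPM. The cytokine gene *Il1b* fell from 261 ± 46.8 to 142 ± 15.2 CPM and *Ptgs2*, which encodes cyclooxygenase 2, from 11.7 ± 1.77 to 5.41 ± 0.555 CPM (SD, n = 4). Over all genes 7.00% were called higher and 6.50% lower. The list thus held genes that moved in both directions beside the rising ligands. Between the doses 6 rose and 2 fell, *Tnf* among the former with 0.68 (edgeR adjusted p = 8.25e-06). At 10 µM against vehicle none was called by edgeR, DESeq2 or limma-voom, 4 had an unadjusted p under 0.05, and without vehicle replicate 4 edgeR called 1 lower.

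**Figure D4:**
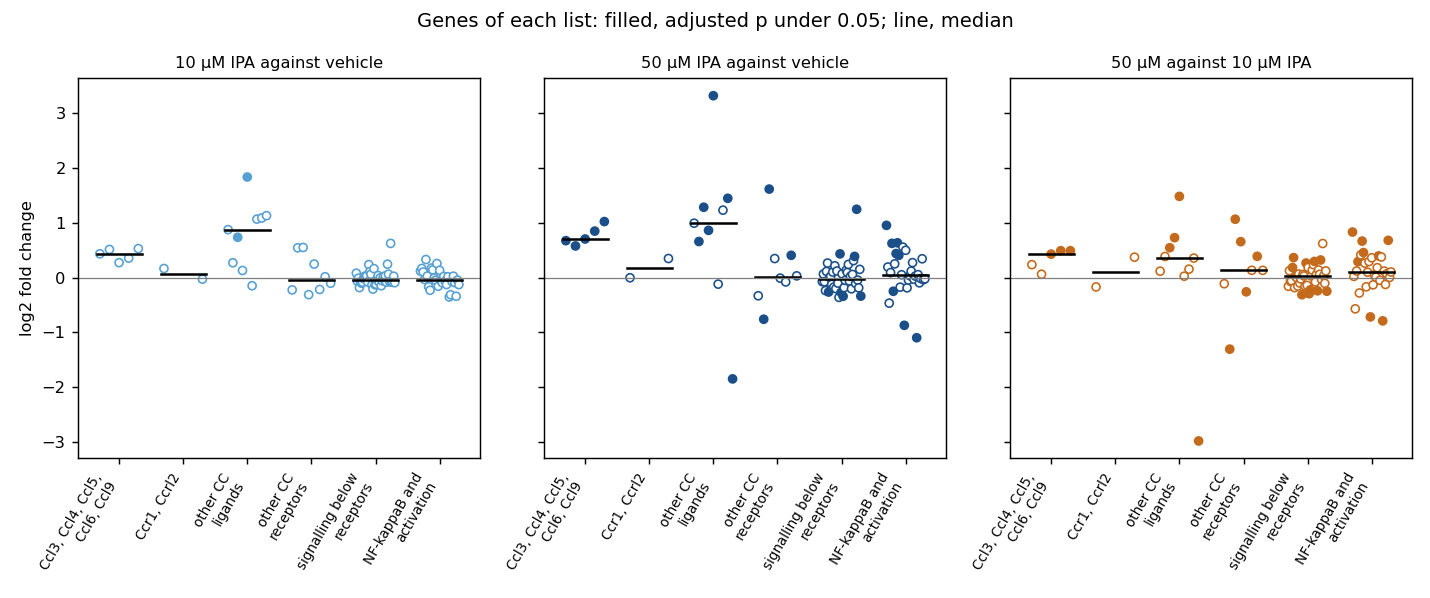
log2 fold change (vertical axis) of every tested gene of each list in the 3 comparisons. Filled points have an adjusted p under 0.05 in edgeR, and black lines mark medians. The 5 ligands sit together between 0.58 and 1.02 at 50 µM against vehicle, whereas the lists of signalling and activation genes have medians of -0.02 and 0.05 and points on both sides of 0.

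Cell type markers were read beside the shares of all genes called. These were 7.00% higher and 6.50% lower at 50 µM against vehicle. Between the doses they were 7.52% and 7.85%, and at 10 µM 0.329% and 0.0806%. A single call in a short marker list is no result about it. At 50 µM against vehicle markers of several cell types changed, some rising with the ligands and others falling. Of 10 neutrophil markers 5 fell and none rose, and their summed level was 15530 to 21190 CPM against 21310 to 29820 CPM in vehicle. Of 4 monocyte markers 3 fell, with sums of 819 to 1055 CPM against 1238 to 1711 CPM. Of 8 macrophage markers 2 rose and 1 fell, with sums of 1657 to 1762 CPM against 1592 to 1760 CPM. Of 6 B cell markers tested 5 rose, from sums of 19.3 to 27.7 CPM to sums of 37.9 to 60.9 CPM. Of 6 eosinophil markers 3 fell, of 7 mast cell and basophil markers tested 1 rose and 1 fell, and of 5 dendritic cell markers 1 rose. None of 4 T cell, 2 NK cell, 1 erythroid and 2 stromal markers tested was called, and *Ncr1*, *Gzma* and *Hbb-bs* had at most 3 counts in any library. At 10 µM, 2 of the 8 macrophage markers rose, and none of 47 markers of the other lists was called by edgeR, where 13 had an unadjusted p under 0.05, DESeq2 called 2 and limma-voom 0. From 10 µM to 50 µM, 5 of the 8 macrophage markers fell, *C1qa*, *C1qb*, *C1qc*, *Csf1r* and *Mertk*, and 1 rose, with sums of 1657 to 1762 CPM against 1805 to 2051 CPM at 10 µM. All 4 monocyte markers fell between the doses (819 to 1055 against 1624 to 1788 CPM), as did 5 of 10 neutrophil markers (15530 to 21190 against 20140 to 23120 CPM), and 5 of 6 B cell markers rose (37.9 to 60.9 against 24.2 to 34.4 CPM). Of the other lists, 2 eosinophil markers fell, and 2 mast cell and basophil markers and 1 T cell marker rose. Some of these marker counts rested on single libraries. Between the doses 3 monocyte markers fell without 10 µM replicate 1, 2 or 3 or 50 µM replicate 2, 3 or 4. At 50 µM against vehicle 4 B cell markers rose without vehicle replicate 1 or 3 or 50 µM replicate 1, 2 or 3. Without vehicle replicate 2, 6 B cell markers rose. In the same comparison 2 eosinophil markers fell without vehicle replicate 3 or 50 µM replicate 1 or 2. The number of macrophage markers called higher at 10 µM, 2 as reported, was 2 without vehicle replicate 4, 1 without 10 µM replicate 4 and 0 without any other library. At 50 µM against vehicle 1 macrophage marker was called higher without vehicle replicate 2 or 3 or without any 50 µM library, and the dendritic cell call ended without vehicle replicate 1 or 3 or 50 µM replicate 1, 2 or 3. Without vehicle replicate 4, 2 neutrophil markers, 2 mast cell and basophil markers and 1 T cell marker were called higher at 50 µM, and 1 dendritic cell and 1 stromal marker lower. The number of mast cell and basophil markers called lower at 50 µM was 2 without vehicle replicate 1 or 2 or 50 µM replicate 3. Without vehicle replicate 4, 1 monocyte and 1 neutrophil marker were called higher at 10 µM. Between the doses 3 macrophage markers were called lower and 1 dendritic cell marker higher without 50 µM replicate 4, and 1 mast cell and basophil marker was called lower without 10 µM replicate 1 or 50 µM replicate 3. The part of these cell types in the rise of the ligands was not tested. The study describes a slight loss of viability at 50 µM, whose part was not tested either.

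Between *Ccl5* and *Ccl4* the only other protein-coding gene was *Rpl9-ps1*, with at most 6 counts per library. Together with the 5 protein-coding genes on each side, 8 other genes were tested, of which 0 were called higher and 1 lower by edgeR at 50 µM against vehicle. With 7.00% of all genes called higher, nothing is read from the count of so short a list. Without vehicle replicate 2, *Heatr6* was called higher (0.32, edgeR adjusted p = 0.0251), and *Wfdc17* was called lower without that library (0.0367) or without 50 µM replicate 3 (0.0241). *1700020L24Rik* fell by 1.07 (edgeR adjusted p = 0.00196). Between the doses 1 was called higher and 2 lower: *Heatr6* rose by 0.35, and *1700020L24Rik* fell by 1.07 and *Wfdc17* by 0.69. In that comparison 2 were called higher without 10 µM replicate 3, and 3 lower without 50 µM replicate 3. On chromosome 9, the span from 5 genes before *Ccrl2* to 5 genes after *Ccr1* held 86 other tested genes. Of these, 6 were called higher and 9 lower at 50 µM against vehicle, near the shares of 7.00% and 6.50% over all genes, and between the doses 10 and 8, near 7.52% and 7.85%. Leaving out 1 library gave 3 to 10 higher and 5 to 10 lower against vehicle, with 3 higher without vehicle replicate 1 or 3, 10 higher without vehicle replicate 4 and 5 lower without vehicle replicate 3, and 6 to 13 higher and 6 to 9 lower between the doses, with 6 higher without 50 µM replicate 2. At 10 µM against vehicle none was called, and 2 were called higher without vehicle replicate 4.

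One gene overlaps these members. *E230016K23Rik*, a noncoding gene singled out after its values were seen, lies across *Ccl6* on the opposite strand, with no exon in common, and had 134 to 440 counts per library. It was counted at 5.52 to 7.15 CPM in vehicle, 9.63 to 11.2 CPM at 10 µM and 12.2 to 16.1 CPM at 50 µM, so its groups did not overlap. Its log2 fold change was 1.15 at 50 µM against vehicle (edgeR adjusted p = 9.30e-05) and 0.47 between the doses (0.0111, and 0.0506 without 50 µM replicate 2). At 10 µM it was 0.68 with an edgeR adjusted p of 0.0385, which held in 1 of 8 fits without 1 library and ended in the others, with adjusted p up to 0.145 without 10 µM replicate 2. With the replicate block in the edgeR fit, this call ended too (adjusted p of 0.226). The strand setting of the read counting is not given in the sources used here, so reads of unspliced *Ccl6* RNA and of this gene could not be told apart.

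Genes with a pattern most like that of each ligand were sought among the 12599 genes that averaged 1 CPM or more and had no library at 0, as the root mean square distance between log2 CPM profiles over the 12 libraries, each centred on its own mean. For *Ccl9* the nearest gene was *Ccl6*, at 0.111. For *Ccl6* the nearest was *Pla2g7* at 0.0893, which encodes a secreted phospholipase, followed by *Ccl9* and then *Rhoc* at 0.116. *Ccl9* had *Pla2g7* and *Gpnmb* in the next places, at 0.142 and 0.146. The profile of *Ccl3* was nearest to *Cd22* (0.0999), *Cd300ld* (0.107) and *Epsti1* (0.122), and that of *Ccl4* to *Mmp12* (0.136), *Epsti1* (0.139) and *Tmsb10* (0.140). *Ccl5* was nearest to *Rab20* (0.115), *Irf5* (0.129) and *Ighm* (0.130). These distances share libraries and dose groups and are a description only.

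Because *Ccl6* and *Ccl9* had the most alike profiles of the ligands, the 250 bases before their start sites are shown, from RefSeq (build GRCm38.p6, minus strand, *Ccl6* at chr11:83593088-83593337 and *Ccl9* at chr11:83578637-83578886). Capitals mark matches to any of the motifs searched.
Ccl6: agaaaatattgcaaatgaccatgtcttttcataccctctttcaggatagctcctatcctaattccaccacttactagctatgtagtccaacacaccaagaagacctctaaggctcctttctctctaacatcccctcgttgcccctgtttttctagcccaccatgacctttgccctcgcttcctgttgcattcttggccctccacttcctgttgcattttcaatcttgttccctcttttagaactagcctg
Ccl9: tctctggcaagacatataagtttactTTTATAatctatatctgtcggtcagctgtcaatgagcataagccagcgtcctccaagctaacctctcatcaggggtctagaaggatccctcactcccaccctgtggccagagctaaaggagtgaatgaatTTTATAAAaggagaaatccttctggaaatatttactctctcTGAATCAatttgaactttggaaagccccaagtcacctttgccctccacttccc

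Both strands were searched for GGANNTTCC (NF-kappaB type), TGANTCA (AP-1 type), TTGCNNAA (C/EBP type), TGACGTCA (CRE), GAGGAAG (ETS type) and TATAAA. Among 32851 RefSeq promoters of the same length, 3.59%, 6.75%, 9.56%, 1.55%, 10.6% and 12.4% held these letters. *Ccl9* held 1 match to TGANTCA, 53 bases before the start, and 3 to TATAAA, 2 of them overlapping on opposite strands at 94 and 92 bases before the start. *Ccl6*, *Ccl3* and *Ccr1* held none of the 6. The search covered 5 of the 7 genes, and *Ccl4* and *Ccl5* were not searched. *Ccrl2* had 3 listed promoters, and 1 of them held GGANNTTCC once. A match is a description of letters, and its absence says only that they are not in this window.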

How the data were processed

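The authors deposited a table of raw read counts per Ensembl gene for 12 libraries of stranded mRNA. By their methods, reads were trimmed with Atropos, aligned to mm10 and summarised per gene on Ensembl annotation of GRCm38, and the submitters' processing notes name HISAT2 2.2.1 and featureCounts 2.0.1. The strand setting was not given in the sources used here. Groups came from the treatment labels. The titles of 2 libraries at 10 µM give replicate number 2, and their library names told them apart.

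Genes above 0.5 CPM in at least 2 libraries were kept, 14894 in all. Each comparison used only its own 8 libraries, with TMM scaling and edgeR 4.0.16 in R 4.3.3 (quasi-likelihood test, Benjamini-Hochberg adjustment over all tested genes, threshold 0.05). The SE is the log2 fold change divided by the root of the test's F value. DESeq2 1.42.0, limma 3.58.1 (voom), DESeq2 size factors, other filters, all 12 libraries in 1 fit, a replicate block and leaving out each library were tried as alternatives. The scripts were tested on simulated counts. RPKM used the exon length of each gene in GENCODE M21. Coding sequences were aligned with Biopython 1.88. No libraries of a group agreed within counting noise, and no library was left out. Totals ranged from 20451312 to 28038612 counts, and of the 7 genes *Ccl5* and *Ccrl2* had the fewest counts. The SE at 50 µM against vehicle was 0.13 for *Ccl4* and 0.12 for *Ccl5*, so precision did not follow counts alone.

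The 7 genes and the other lists were chosen with earlier results of these data known. Named genes were all 7, other receptors and chemerin genes, from each other list at most 4 called genes per comparison averaging 1 CPM or more with the largest absolute log2 fold change, the chromosomal neighbours (5 protein-coding genes on each side) and the 3 most alike genes of each called member. A few further names were added after their values were seen: *E230016K23Rik* and the markers named by cell type. Some genes of these lists are not reported here.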

Additional observations from a re-analysis of the deposited data

How the results depend on the processing

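The 5 ligands kept their direction at 10 µM and at 50 µM against vehicle in all 15 alternatives, and at 50 µM their calls held in each. At 10 µM the number of the 7 genes called higher was 0 as reported, 4 with DESeq2, 4 without a filter on low counts, 2 with all 12 libraries in the fit, and 0 to 2 when 1 library was left out. Between the doses 3 were called higher as reported, and 5 with DESeq2 and 5 without a filter, and the number called lower was 0 to 1 when 1 library was left out. The number of all genes called at 10 µM was 61 as reported, 250 with DESeq2, 150 without a filter, 118 with all 12 libraries and 4 to 122 without 1 library. At 50 µM against vehicle it was 2010 as reported and 1248 without vehicle replicate 3 or 1313 without 50 µM replicate 2. *Ccrl2* at 10 µM, *Ccr1* at 50 µM and *Ccl4* between the doses kept their sign in 12, 9 and 13 of 15 alternatives, with none of them called as reported. The cause of these shifts was not tested.

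No pairing by replicate number was seen in the values: deviations of same-numbered libraries correlated at -0.395 to 0.215, above 0.1 in 2 of 12 pairs. Such correlations cannot show that the cultures were unpaired, and the labels do not say. For viability and monocyte percentages in such cultures the study used a repeated-measures test. With the replicate block 0 of the 7 genes were called higher at 10 µM, 6 at 50 µM and 4 between the doses, with *Ccrl2* called at 50 µM against vehicle (edgeR adjusted p = 0.0400) and against 10 µM (edgeR adjusted p = 0.0227). The block left 3 genes called in all at 10 µM.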
